A study of Arabidopsis thaliana with 6 samples.

Results

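The CYP71B genes of Arabidopsis thaliana encode cytochrome P450 enzymes of 1 subfamily. The set described here comprises CYP71B6, CYP71B19, CYP71B20, CYP71B23, CYP71B24 and CYP71B28, 6 of the 7234 genes with a named feature. It was defined by subfamily name and not by a cut on its values, but was chosen with earlier results of these data known. The condition that defines it, a CYP71B name and a named feature, is also met by CYP71B26, CYP71B34, CYP71B35 and CYP71B37. These other 4 are therefore given beside the 6, and counts are stated for the 6 and for all 10. The annotation lists 37 CYP71B genes, of which 34 are protein-coding, so most of the subfamily was not analysed here.

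Cytochrome P450s are haem enzymes anchored in the endoplasmic reticulum that insert an oxygen atom into small molecules, with electrons supplied by NADPH-P450 reductase. In Arabidopsis the CYP71 family serves mainly specialised metabolism, and many of its genes lie in tandem runs. The best known CYP71B enzyme is CYP71B15 (PAD3), which makes the phytoalexin camalexin and was not analysed here. CYP71B6 acts on indole-3-acetonitrile, an intermediate of indole metabolism. No role is given below for the other genes.

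Transcripts were measured in whole seedlings on 6 two-colour arrays, 3 with Col-0 wild type grown for 60 h under red light that stayed on (24 μmol m-2 s-1) and 3 with the pif3pif4pil5pil6 quadruple mutant (pifQ) grown for 60 h in darkness. All seedlings, the dark-grown Col-0 controls included, had first had 3 days of cold in the dark and 6 h of white light (100 μmol m-2 s-1), on medium with 1% sucrose. On each array the sample was labelled with Cy5 and the dark-grown Col-0 control with Cy3, so every value is a ratio over dark-grown Col-0, taken as log2, and positive values mean more transcript than in the control. The mutant lacks 4 phytochrome-interacting bHLH factors that keep dark-grown seedlings etiolated, and 0 of those 4 genes have a named feature, so its genotype was not checked by transcript. In whole seedlings, fewer cells that express a gene and less transcript per cell cannot be told apart.

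Each of the 10 genes was represented by 1 feature. Features of close tandem copies may not tell the copies apart, and their specificity was not tested. Across all named genes the red light arrays correlated at 0.812 to 0.913 and the pifQ arrays at 0.423 to 0.615. With the red light arrays, pifQ replicate 1 correlated at 0.561 to 0.591, replicate 2 at 0.453 to 0.546 and replicate 3 at 0.593 to 0.695. Replicate 3 correlated at 0.506 with pifQ replicate 1 and at 0.423 with pifQ replicate 2. As a reference for the scale of the response, all 5 of 5 light-raised photosynthesis genes, chosen with results of these data known, were called higher in both groups, with median log2 ratios of 3.68 in red light and 1.95 in pifQ. Of 7 root markers 1 had a named feature, EXPA18, at log2 -0.21 ± 0.41 (SD, n = 3) in red light and 0.23 ± 0.13 in pifQ.

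The question of the first comparison was what continuous red light did to these transcripts in the wild type. CYP71B20 rose, and CYP71B19, CYP71B23, CYP71B24 and CYP71B6 fell, while CYP71B28 did not pass the test. The changes were moderate, about 2-fold for CYP71B19 and CYP71B23 and less for the rest. With CYP71B26, the gene of the 10 that rose most, 6 of the 10 genes passed, 2 higher and 4 lower. Tests were made with limma over all 7234 genes with Benjamini-Hochberg adjustment, and a call is an adjusted p under 0.05. At that threshold 37.8% of all genes were called, 18.8% higher and 19.0% lower. Of the 6 genes 5 were called, and their median log2 ratio was -0.39, beside -0.02 for all genes. For each of the 6 genes the 3 red light arrays lay on 1 side of 0, as they did for 68.9% of all genes.

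CYP71B20 had log2 ratios of 1.01, 0.93 and 0.67 on red light replicates 1, 2 and 3. All 3 arrays lay above 0, and the mean corresponds to a 1.82-fold increase (log2 0.87, SE 0.20, adjusted p = 0.00951 by limma). CYP71B19, the next gene on the chromosome with no protein-coding gene between them, stood at -0.80, -1.67 and -0.96. It was 2.21-fold lower (log2 -1.14, SE 0.20, adjusted p = 0.00247), with replicate 2 the lowest of the 3. On every red light array the ratio of CYP71B20 exceeded that of CYP71B19, by log2 1.81, 2.59 and 1.63. These adjacent genes were thus called in opposite directions in red light.

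CYP71B23 was lowered evenly, at -1.06, -1.12 and -0.93. Its mean was 2.05-fold below dark Col-0 (log2 -1.04, SE 0.14, adjusted p = 0.000768). CYP71B24 had ratios of -0.36, -0.51 and -0.42, a 1.35-fold decrease (log2 -0.43, SE 0.11, adjusted p = 0.016). CYP71B6, the indole-3-acetonitrile enzyme, had -0.43, -0.44 and -0.14, so replicate 3 lay nearer to 0 than the others. It was 1.26-fold lower and passed narrowly (log2 -0.34, SE 0.11, adjusted p = 0.041). CYP71B28, which lies in a group of CYP71B genes on chromosome 1, had 0.25, 0.10 and 0.13. Its arrays were all slightly above 0, but the mean of 0.16 did not pass (95% interval -0.12 to 0.44, adjusted p = 0.346).

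**Figure D1:**
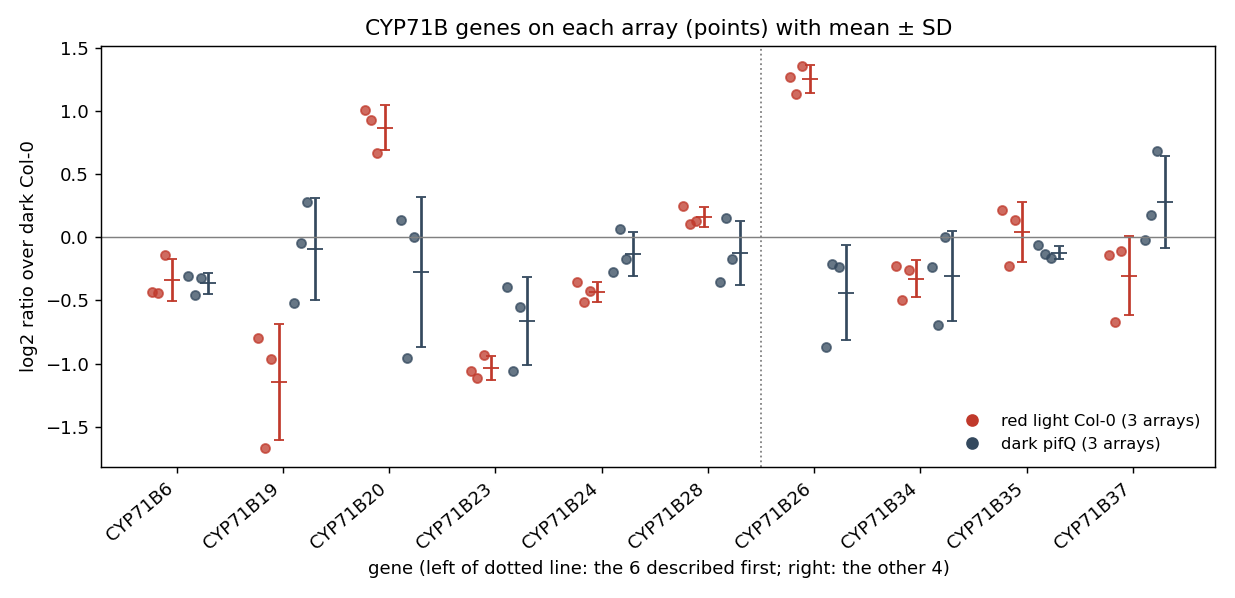
Log2 ratio over dark-grown Col-0 (vertical axis) of each of 10 CYP71B genes (horizontal axis). Points are single arrays, 3 of red light Col-0 and 3 of dark pifQ, and the bars beside them are mean ± SD. In red light CYP71B20 and CYP71B26 lie well above 0 and CYP71B19 and CYP71B23 well below it, while most pifQ values scatter around or below 0.

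Among the other 4 genes, CYP71B26 gave the largest increase of the 10 genes with a named feature, with log2 ratios of 1.27, 1.14 and 1.36 in red light. It was 2.39-fold higher (log2 1.25, SE 0.15, adjusted p = 0.000371). CYP71B26 ranked first and CYP71B20 second of the 10 on all 3 red light arrays, and their array values did not overlap. CYP71B34 (-0.23, -0.50 and -0.26, adjusted p = 0.11) and CYP71B37 (-0.14, -0.67 and -0.11, adjusted p = 0.182) lay below 0 on every array without passing. CYP71B35 had values on both sides of 0, at 0.22, -0.23 and 0.14 (adjusted p = 0.828). In descending order of the red light mean, the genes ran CYP71B26, CYP71B20, CYP71B28, CYP71B35, CYP71B37, CYP71B34, CYP71B6, CYP71B24, CYP71B23 and CYP71B19. Array values separated without overlap only between CYP71B26 and CYP71B20, between CYP71B20 and CYP71B28, and between CYP71B24 and CYP71B23, and all other neighbours in this order overlapped.

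Because the control was only a reference channel, these tests do not cover its own variation wherever arrays shared a dark Col-0 extract. The sample was in Cy5 on every array of both groups. A dye effect of a feature and a change against dark Col-0 therefore cannot be told apart. Without red light replicate 1 or without replicate 2, 2 of the 6 genes stayed called, CYP71B19 and CYP71B23. Calls over all genes also fell, from 2731 in the main fit to 1432 without replicate 1 and 1688 without replicate 2. Without replicate 1 the adjusted p was 0.0647 for CYP71B20, 0.075 for CYP71B24 and 0.233 for CYP71B6, and without replicate 2 it was 0.0503, 0.0873 and 0.182. CYP71B24 also missed the threshold without replicate 3 (adjusted p = 0.0662), and CYP71B6 without pifQ replicate 1, through the shared estimate of spread (adjusted p = 0.0535). CYP71B34 passed without pifQ replicate 2 in the same way (adjusted p = 0.0493). CYP71B19, CYP71B23 and CYP71B26 were called without each array in turn.

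The question of the second comparison was whether loss of the PIF factors in darkness changed the same transcripts. CYP71B23 fell and was the 1 gene of the 6, and of the 10, that passed. None of the 10 was called higher in pifQ by limma. At an unadjusted p under 0.05 there were 0 higher and, besides CYP71B23, CYP71B6 and CYP71B26 lower. The share of all genes under that unadjusted threshold was not counted. Of all genes 11.6% were called, 332 higher (4.59%) and 509 lower (7.04%), or 411 and 364 when each array was centred on its median. The median log2 ratio of the 6 genes was -0.20, beside -0.04 for all genes.

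CYP71B23 had log2 ratios of -0.39, -1.06 and -0.55 on pifQ replicates 1, 2 and 3. It was 1.59-fold lower than in dark Col-0 (log2 -0.67, SE 0.14, adjusted p = 0.0211), and replicate 2 was the lowest. Without pifQ replicate 2 it stood at log2 -0.47 and missed the threshold (adjusted p = 0.0787), and it also missed it when only the pifQ arrays set the spread (adjusted p = 0.0602). CYP71B6 was repeated most closely of the 6, at -0.31, -0.46 and -0.32, and its mean of -0.36 did not pass (adjusted p = 0.0691). CYP71B6 did pass after scaling (adjusted p = 0.0346) or quantile normalization (adjusted p = 0.0452) of the arrays.

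The pifQ arrays of the remaining 4 of the 6 genes lay on both sides of 0, while 45.3% of all genes had their pifQ arrays on 1 side. CYP71B20 had 0.14, -0.95 and 0.0006, with replicate 2 far below the others and a mean of -0.27 (adjusted p = 0.404). Without replicate 2 the mean was 0.07. CYP71B19 had -0.52, -0.04 and 0.28 (mean -0.09, adjusted p = 0.787), and a mean of 0.12 without replicate 1. CYP71B24 (-0.28, 0.06 and -0.18) and CYP71B28 (-0.35, 0.15 and -0.17) had adjusted p of 0.482 and 0.545. The ratio of CYP71B20 minus that of CYP71B19 was log2 0.66, -0.91 and -0.28 on the 3 arrays, with no common direction.

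CYP71B26 was below 0 on every pifQ array, at -0.87, -0.21 and -0.23, but did not pass (log2 -0.44, SE 0.15, adjusted p = 0.0877). CYP71B37 had the highest mean of the 10 genes in pifQ, at 0.28, from -0.02, 0.18 and 0.68 (adjusted p = 0.307). CYP71B34 (-0.23, -0.70 and 0.004, adjusted p = 0.203) and CYP71B35 (-0.06, -0.14 and -0.17, adjusted p = 0.539) did not pass. From highest to lowest mean the genes ran CYP71B37, CYP71B19, CYP71B35, CYP71B28, CYP71B24, CYP71B20, CYP71B34, CYP71B6, CYP71B26 and CYP71B23, and the array values of all neighbours in this order overlapped.

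The third comparison set red light Col-0 against dark pifQ through their ratios over dark-grown Col-0, the kind of control used on every array. None of the 6 genes passed, where 3.36% of all genes were called by limma, 2.20% as higher in red light. At an unadjusted p under 0.05 there were 2, CYP71B19 and CYP71B20, but the share of all genes under that threshold was not counted. The red light arrays did not overlap the pifQ arrays for CYP71B19, CYP71B20 and CYP71B24, 3 of the 6, as for 23.8% of all genes. CYP71B20 was 2.20-fold higher in red light (log2 1.14, 95% interval 0.50 to 1.78, adjusted p = 0.0694). CYP71B19 was 2.07-fold lower in red light (log2 -1.05, 95% interval -1.68 to -0.42, adjusted p = 0.0863). CYP71B20 passed without pifQ replicate 3 (log2 1.28, adjusted p = 0.0441), with array weights (adjusted p = 0.0192) and when genes near 0 on all arrays were left out (adjusted p = 0.0494).

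CYP71B26 was the 1 gene of the 10 that passed, 3.23-fold higher in red light Col-0 than in dark pifQ (log2 1.69, SE 0.21, adjusted p = 0.00463). Its red light arrays were all above 0 and its pifQ arrays all below 0, a pattern found in 1.67% of all genes. CYP71B26 was called without each array in turn and under all 10 other settings. The setting that takes the spread of the compared groups repeats the main fit in this comparison, so it adds nothing. For CYP71B23 the difference was log2 -0.37 (95% interval -0.82 to 0.08, adjusted p = 0.373). The 95% interval of the difference ran from -0.33 to 0.38 for CYP71B6, from -0.66 to 0.06 for CYP71B24 and from -0.11 to 0.68 for CYP71B28, each of which includes 0. CYP71B37 was lower in red light on all arrays than on any pifQ array, at a difference of log2 -0.58 that did not pass (adjusted p = 0.23). CYP71B34 (-0.02) and CYP71B35 (0.16) had overlapping arrays.

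**Figure D2:**
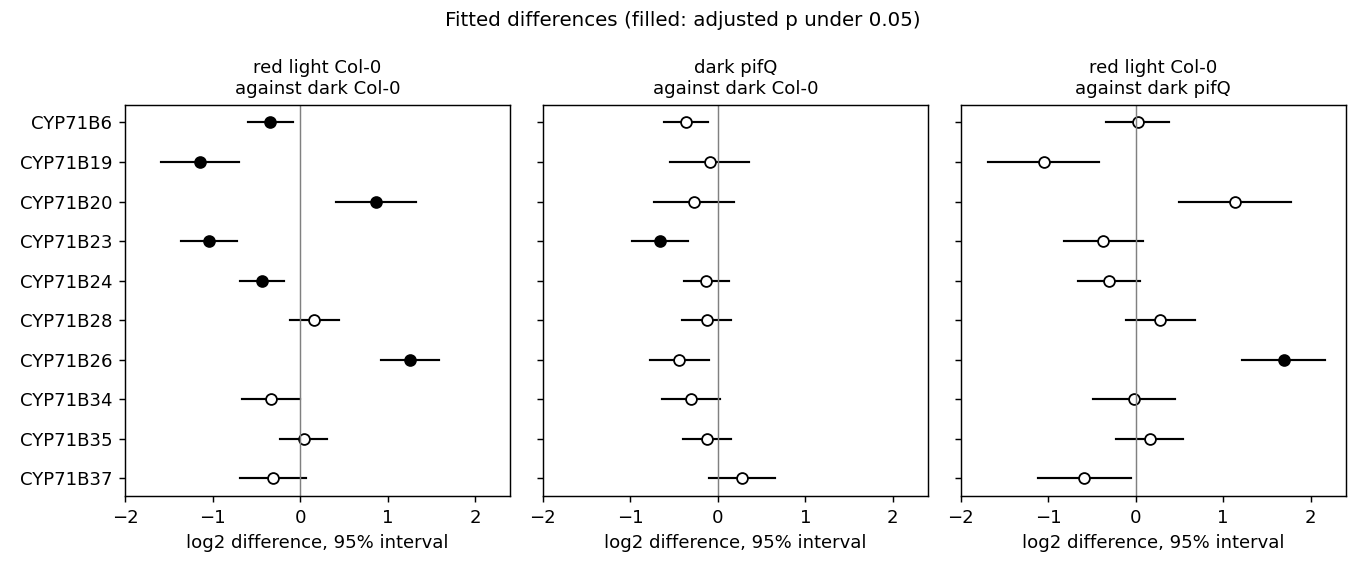
Fitted log2 difference (horizontal axis) with its 95% interval for 10 CYP71B genes (vertical axis) in each of 3 comparisons. Filled points have an adjusted p under 0.05: 6 genes in the first comparison (red light over darkness in Col-0), CYP71B23 in the second (pifQ over Col-0 in darkness) and CYP71B26 in the third (red light Col-0 over pifQ).

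Of the 10 genes 8 lie in 1 run on chromosome 3. From CYP71B16 to CYP71B37 the run holds 20 protein-coding genes, 16 of them CYP71B genes and 8 of those with a named feature. CYP71B19, CYP71B20, CYP71B23 and CYP71B24 lie toward its start, and CYP71B26, CYP71B34, CYP71B35 and CYP71B37 toward its end. In red light the raised CYP71B20 lay directly beside the lowered CYP71B19. The raised CYP71B26 lay, counting protein-coding genes only, directly beside CYP71B34, which did not pass. The remaining genes lie elsewhere, CYP71B6 on chromosome 2 and CYP71B28 on chromosome 1.

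**Figure D3:**
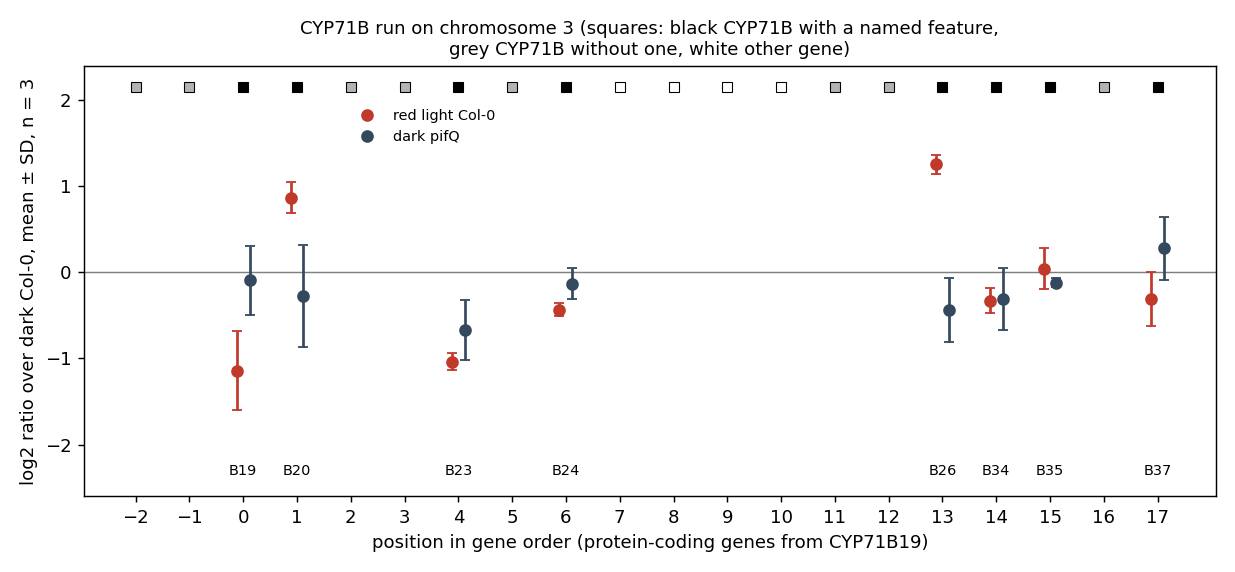
Mean log2 ratio over dark Col-0 ± SD (n = 3, vertical axis) of the 8 CYP71B genes with a named feature in the chromosome 3 run, placed by gene order (horizontal axis, protein-coding genes counted from CYP71B19). Squares at the top mark each gene of the run, black for a CYP71B gene with a named feature. CYP71B19 and CYP71B20, side by side, stand at -1.14 and 0.87 in red light.

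Within 5 protein-coding genes on either side of the 6 genes, 6 genes outside the set had a named feature. In red light 4 of these were called lower and 1 higher, where 19.0% and 18.8% of all genes were, and no test of this difference was made. Beside CYP71B6 on chromosome 2, its direct neighbour AT2G24170 stood at log2 -0.76 in red light (adjusted p = 0.00198) and -0.76 in pifQ (adjusted p = 0.00896). AT2G24140, the third gene on that side, stood at -0.47 and -0.56 (adjusted p = 0.012 and 0.0183). Both neighbours were thus called lower in each comparison with dark Col-0, and CYP71B6 in 1 of them. AT3G26240, inside the chromosome 3 run, fell in red light (log2 -0.54, adjusted p = 0.0182). Near CYP71B28, AT1G13030 rose in red light (log2 0.56, adjusted p = 0.0313). AT1G13130, named after its value was seen to complete the count, fell (log2 -0.42, adjusted p = 0.0236). None of the 6 neighbours passed in red light Col-0 against dark pifQ.

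Other P450 genes offered little to compare with. Of 239 protein-coding genes with a CYP name in the annotation 11 had a named feature here, the 10 CYP71B genes and CYP78A9, known for its part in fruit and seed growth. CYP78A9 had a log2 ratio of 0.02 in red light (adjusted p = 0.943) and 0.0035 in pifQ (adjusted p = 0.995). The CYP71A, phenylpropanoid and hormone P450 lists and the list of P450 redox partners had 0 genes with a named feature. Of 45 genes of indole and camalexin metabolism 2 had a named feature, CYP71B6 and the glucosinolate glucosyltransferase gene UGT74B1. UGT74B1 stood at log2 -0.19 in red light (adjusted p = 0.201) and 0.04 in pifQ (adjusted p = 0.861).

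Genes whose ratios were most like those of a CYP71B gene were ranked by the root mean square difference over the 6 arrays. They were picked by these same ratios, so signs, calls and low arrays shared with the CYP71B gene follow from the choice. Nearest to CYP71B26 was AT1G59740 (NPF4.3), of the nitrate and peptide transporter family, at a root mean square difference of 0.20. Its ratios were above 0 on all red light arrays and below 0 on all pifQ arrays (means 1.03 and -0.46). AT4G09750 came next at 0.25, with means of 1.32 and -0.28. Nearest to CYP71B23 were AT5G37790 (0.12) and AT4G28890 (0.13), both called lower in red light and in pifQ. For CYP71B20 they were AT2G36290 (0.19) and AT4G18810 (0.20), which like it were low on pifQ replicate 2, at -0.66 and -0.66. CYP71B19 lay closest to AT4G31660 (0.18) and AT4G29690 (0.22). For CYP71B24 these were AT1G04430 (0.053) and AT5G08500 (0.067), and for CYP71B6 they were AT1G30690 (0.053) and BZIP28 (0.057), an endoplasmic reticulum stress transcription factor gene. Genes with small ratios have many near neighbours by this measure, so the last 4 genes say little beyond their low values.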

How the data were processed

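The deposited values are 1 log ratio per feature and array, read as log2 of the sample (Cy5) over dark-grown Col-0 (Cy3), with the direction per the labels. The base is not stated; values span -5.63 to 7.85, and per the submitters' processing notes limma was used (no version). No source used here says how background, dye bias and poor spots were handled. No intensities accompany the ratios, so the number of arrays limits the precision. Array medians lay between -0.0050 and -0.00036, so arrays appear centred.

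Of 45220 features 7440 have 1 gene name, 0 have several and 37780 have none here. Gene identifiers placed all 7440 in TAIR10.1, giving 7234 genes (139 with more than 1 feature, averaged). Tests used limma 3.58.1 in R 4.3.3 (lmFit, eBayes) with a coefficient for either group over all 6 arrays. They are two-sided, and p-values were adjusted over 7234 genes by Benjamini-Hochberg. The labels call the 3 samples of a group independently grown. The method was tested on simulated data with 200 changed genes per comparison. The annotation was used for names and gene order, and no sequences were printed. Members, lists and tests were chosen with earlier results of these data known. Named are all CYP71B genes, up to 4 passing members of each list or the one with the smallest p, neighbours within 5 genes that passed (up to 4), the 3 largest changes per direction among other P450 genes, and the 2 genes most like each called gene. Alternatives were centring, scaling, quantile normalization, single features, all features, a filter (absolute log2 under 0.2 on all arrays), the spread of the compared groups, a robust prior, array weights, leaving out each array and a replicate block.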

Additional observations from a re-analysis of the deposited data

Results flagged for a closer look

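CYP71B26 differed between the groups: its log2 ratio over dark Col-0 was 1.25 in the red light seedlings and -0.44 in the mutant, and the test of the difference itself gave log2 1.69 (adjusted p = 0.00463, limma), with all 3 red light arrays above all 3 pifQ arrays. It is not among the 6 genes of the set but meets the same condition.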

How the results depend on the processing

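Of 480 values of the 10 genes under alternatives, 442 kept their direction and their side of the threshold, 15 kept the direction but no longer passed, 9 newly passed and 14 changed sign. Many of the 480 could not change direction. Several settings altered only the spread or the adjustment, and leaving out an array of either group left the ratio of the other group over dark Col-0 unchanged. All sign changes were in values that had not passed: in red light against pifQ, CYP71B6 stood at -0.0068 after median centring and -0.042 with array weights, and CYP71B34 at 0.057 after scaling, 0.0086 after quantile normalization and 0.034 with array weights. Leaving out each array gave -0.074 to 0.076 for CYP71B6 and -0.21 to 0.14 for CYP71B34 there, -0.045 to 0.18 for CYP71B35 in red light, and -0.28 to 0.12 for CYP71B19 and -0.48 to 0.069 for CYP71B20 in pifQ. The CYP71B6 call in red light also ended after centring, scaling or quantile normalization (adjusted p = 0.0528, 0.0747 and 0.0657), and CYP71B28 (0.0232) and CYP71B34 (0.0166) newly passed with array weights, CYP71B34 also with the spread of the red light arrays alone (0.0451).

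Of the 6 genes, 2 to 5 were called in red light without single arrays, 0 to 1 in pifQ and 0 to 1 in red light against pifQ. Of all 10 these numbers were 3 to 7, 0 to 1 and 1 to 2. In pifQ scaling and quantile normalization each gave 2 calls, for the 6 as for the 10. Over all genes, calls there rose from 841 to 1208 and 1246. A spread from pifQ arrays only gave 0, again for the 6 as for the 10. In red light against pifQ, the filter and array weights each gave 1 call of the 6 and 2 of the 10. Over all genes they gave 288 and 639 calls, beside 243 in the main fit.

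Over all genes, calls in red light numbered 2731, 4508 with array weights, 8431 with all features in the fit (more features tested), and 1432 to 3001 without single arrays. In pifQ there were 841, 1846 with all features, 443 with a spread from pifQ arrays only, and 230 to 804. In red light against pifQ there were 243 (159 higher, 84 lower), 90 after scaling (72 and 18), 74 after quantile normalization (55 and 19), 525 with all features, 639 with array weights, and 61 to 563.

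Same-numbered arrays did not deviate together from their group means (r = -0.176, -0.148 and -0.167). With 3 arrays per group these values depend on one another, so they cannot decide whether the numbers pair the samples. With a replicate block 3 of the 6 genes were called in red light, CYP71B6 (adjusted p = 0.0912) and CYP71B24 (0.0528) falling short. Over all genes the block gave 2133 calls in red light (2731 in the main fit), 462 in pifQ (841) and 120 in red light against pifQ (243). The cause of these shifts was not tested. Without intensities, features near background could not be set apart.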
